A study of Mus musculus with 12 samples.

Results

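The genes examined here encode the machinery of oxidative phosphorylation in mouse liver: the subunits of respiratory complexes I to IV and of ATP synthase, cytochrome c, and the Ndufaf factors that help to build complex I. The rule takes genes by symbol (Nduf, Uqcr, Cox4 to Cox8, Atp5, Sdha to Sdhd, Cyc1 and Cycs) and uses no measured value, though the family was picked with earlier results of these data known. The symbols gave 139 of 45281 probes on the array, for 89 genes. Of these, 82 genes passed the detection filter (at least 1 probe with a detection p-value under 0.05 on 4 or more of the 12 arrays) and were tested among 10711 genes. The 7 others, Ndufs1, Ndufaf6, Sdha, Cox4i2, Cox7b2, Cox8b and Cox8c, had 1 probe each, which was detected on no array or, for Cox8b, on 2 of the 12. Ndufs5-ps, a pseudogene, entered by its symbol alone.

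Whole-liver RNA of 2-month-old mice was hybridised to 12 one-colour bead arrays. Every mouse carried floxed Atg7 alleles (Atg7 FF). The 4 Atg7 KO livers came from Alb-Cre:Atg7 FF mice, in which the albumin promoter drives Cre in hepatocytes. The 4 Olig1-Cre livers came from Olig1-Cre:Atg7 FF mice, whose Cre is driven from Olig1, a gene best known from the oligodendrocyte lineage. The 4 control livers were Atg7 FF without a named Cre, 2 of the Alb line and 2 of the Olig1 line. All 4 Atg7 KO livers were male, against 1 male and 3 female livers in each of the Olig1-Cre and control groups, so sex and genotype cannot be fully told apart. The arrays lay on 2 chips, each with 2 arrays per group. The male control (replicate 1) and the male Olig1-Cre liver (replicate 2) were on chip 1. On chip 2 all control and Olig1-Cre livers were female, so there sex and the Atg7 KO genotype cannot be told apart. The 1 probe named for Atg7 was detected on 1 Atg7 KO array, 0 Olig1-Cre arrays and 1 control array, so it did not check the labels, and no source read here says whether it lies in the floxed part.

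Complex I takes electrons from NADH and complex II from succinate. Both pass them through ubiquinone to complex III, cytochrome c and complex IV, which reduces oxygen. Complexes I, III and IV pump protons across the inner mitochondrial membrane, and ATP synthase uses the gradient to make ATP. The hepatocyte is rich in mitochondria, and autophagy, for which Atg7 is required, is one route by which mitochondria are broken down. Most subunits are encoded in the nucleus and imported, while a few are encoded by mitochondrial DNA.

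Complex I subunits and assembly factors were 40 of the 82 members tested. In Atg7 KO livers they made up 15 of the 20 transcripts that fell against control livers. Few bright transcripts fell, in complex I or elsewhere. Split at their median intensity, 3 of the 41 brighter members fell (7.32%, against 23.5% of all genes above that intensity). Of the 41 dimmer members 17 fell (41.5%, against 14.8% of all genes below it). Of the 82 members, 20 fell, 1 (Cox6a2) was called higher but entered through the detection filter alone, as described with complex IV, and 61 did not pass the test (limma, two-sided, adjusted p under 0.05 over all 10711 genes). The share that fell was 24.4%, against a background of 15.3% of all genes, and the share called higher was 1.22%, against 19.5%. The fold change was below 0 for 69 of 82 members and for 50.5% of all genes, and its median was −0.19 on the log2 scale, against −0.0069 over all genes. All 4 Atg7 KO arrays lay below all 4 control arrays in 25 of 82 members (30.5%, against 15.7% of all genes). Of the 20 genes that fell, 12 passed whichever 1 array was left out, and the other 8 did not. All 4 Atg7 KO livers were male. With all 12 arrays and sex in 1 fit, the share of members that fell was 13.4%, against 15.7% of all genes. It was 3.66% against 10.1% with the Alb line controls alone, 14.6% against 6.91% within chip 1 and 4.88% against 6.25% within chip 2. In RNA of whole liver, fewer cells of a type and less RNA per cell cannot be told apart.

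These directions are relative to the bulk of the genes, since quantile normalisation gives every array the same distribution. Before it, the arrays differed: 39.8% to 43.9% of probes were detected in Atg7 KO livers, 39.1% to 41.9% in Olig1-Cre livers and 34.2% to 37.8% in control livers. When arrays were instead scaled to 1 median after background correction, the median difference of all genes in Atg7 KO livers became 0.59 and that of the members 0.30, so the members lay 0.29 below the bulk but above 0, and 0 of them fell while 3 rose. In Olig1-Cre livers the same scaling gave medians of 0.40 for all genes and 0.34 for the members, with 0 called.

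**Figure D1:**
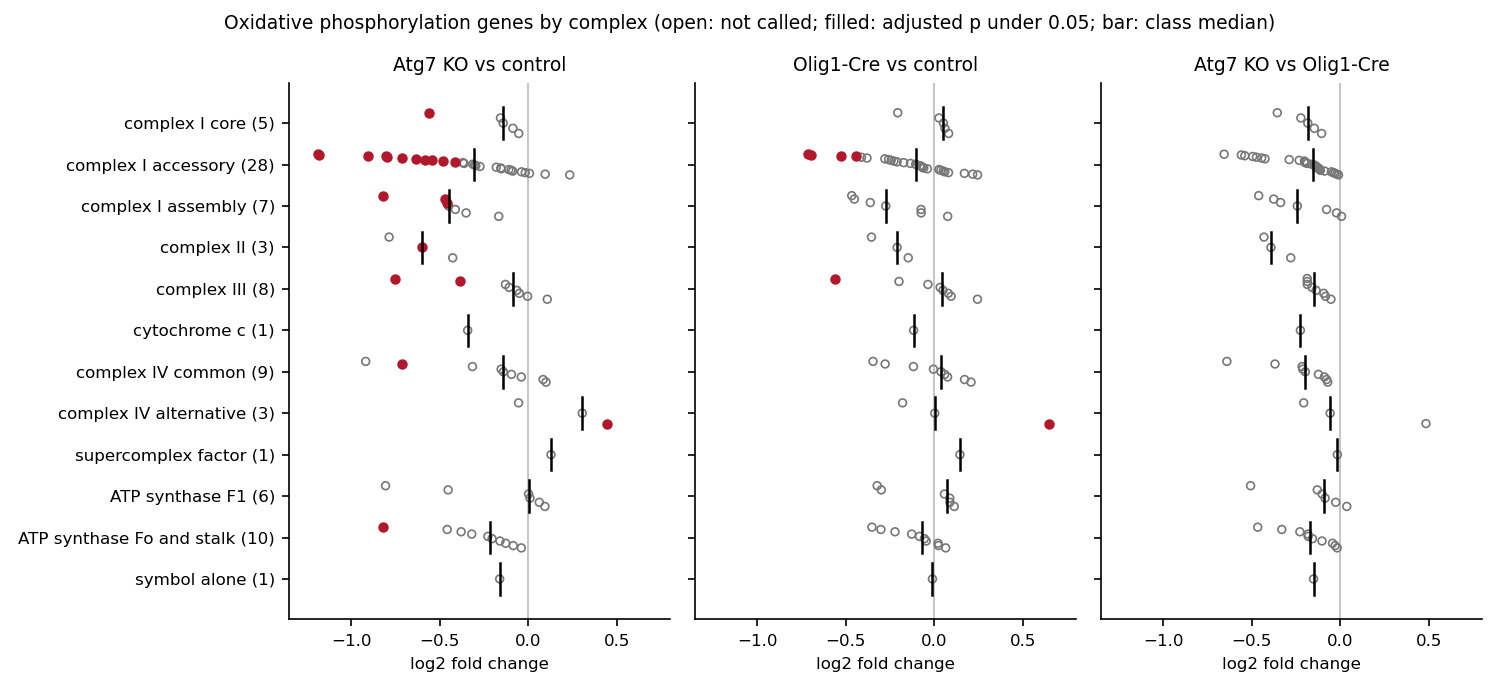
Log2 fold changes of the 82 tested genes (x axis) by class (rows, with the number of genes), for each of the comparisons; filled points passed the limma test, open points did not, and the bar is the class median. The 28 complex I accessory subunits held 11 of the 20 genes that fell in Atg7 KO livers (39.3% of the 28, against 15.3% of all genes). With arrays scaled to 1 median 0 fell, and no member passed in Atg7 KO against Olig1-Cre livers.

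The calls lay unevenly over the complexes. Over all genes, 15.3% fell in Atg7 KO livers. Complex I subunits and assembly factors held 15 of the 20 genes that fell, 37.5% of the 40 tested, with a median log2 fold change of −0.33. Of the 42 members outside complex I, 5 fell (11.9%, below the 15.3% of all genes), with a median of −0.14. Among them 1 was called higher (2.38%, against 19.5% of all genes). Within complex I, 11 of 28 accessory subunits (39.3%), 3 of 7 assembly factors (42.9%) and 1 of 5 core subunits (20%) fell. These shares are counts only, and no test of their difference was made.

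Most of the complex I accessory subunits that fell bear the symbol Ndufb, a grouping chosen after the values were seen. The Ndufb proteins sit in the distal part of the membrane arm of complex I, which holds proton pumping subunits. Of the 10 Ndufb genes tested, 9 fell in Atg7 KO livers (90%, against 15.3% of all genes), with a median of −0.76 on the log2 scale. The other, Ndufb3, had −0.31 ± 0.12 (adjusted p = 0.0702). The size depended on the normalisation. With a cubic spline all 10 fell, with a median of −0.43 (15.1% of all genes fell). With quantiles but no background correction all 10 fell, with a median of −0.42 (15.2% of all genes). With all 12 arrays and sex in 1 fit, 5 of the 10 fell (median −0.56), where 15.7% of all genes fell. Against controls of the Alb line alone 1 fell (median −0.67), where 10.1% of all genes fell. Within chip 1 there were 5 (median −0.96), where 6.91% of all genes fell, and within chip 2 there were 2 (median −0.57), where 6.25% did. Errors of differences are standard errors (SE) throughout. The 12 Ndufa genes, most of which lie elsewhere in the complex, had a median of −0.10, and 2 of them fell (16.7%).

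Ndufb10 had the largest fall among the members. Its level on the log2 scale was 7.42, 7.15, 8.38 and 8.16 in Atg7 KO livers, 8.15, 8.46, 8.44 and 7.96 in Olig1-Cre livers, and 8.71, 9.03, 8.99 and 9.13 in control livers. All 8 arrays of the Cre groups lay below all 4 controls. The difference was −1.19 ± 0.26 in Atg7 KO (n = 4 against 4, adjusted p = 0.00504) and −0.71 ± 0.15 in Olig1-Cre livers (adjusted p = 0.0106), and both of its probes fell in Atg7 KO livers.

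Ndufb9, another subunit of the distal membrane arm, had levels of 7.86, 7.43, 8.55 and 8.98 in Atg7 KO livers, 8.84, 8.81, 9.23 and 8.57 in Olig1-Cre livers, and 9.32, 9.27, 9.35 and 9.62 in control livers. Again no array of a Cre group reached the lowest control. It fell by 1.18 ± 0.29 on the log2 scale in Atg7 KO livers (adjusted p = 0.00979) and by 0.53 ± 0.16 in Olig1-Cre livers (adjusted p = 0.0392). The call in Olig1-Cre livers was lost on leaving out any 1 of 7 of the 8 arrays, all but Olig1-Cre replicate 3, with adjusted p up to 0.0957.

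Ndufb11, an X-linked subunit, was dim but detected on all 12 arrays. It read 5.07, 4.95, 5.02 and 5.28 in Atg7 KO livers, 5.22, 5.27, 5.01 and 4.91 in Olig1-Cre livers, and 6.12, 5.65, 5.65 and 5.77 in control livers, without overlap between either Cre group and the controls. The differences were nearly equal in size, −0.72 ± 0.14 in Atg7 KO (adjusted p = 0.0034) and −0.70 ± 0.15 in Olig1-Cre livers (adjusted p = 0.0103), and both of its probes fell in Atg7 KO livers. Before normalisation, the median signals of these probes were 130.25 and 106 in Atg7 KO livers, against 124.9 and 100.55 in control livers. Whole arrays had median signals of 93.6 to 96.9 in Atg7 KO and 79.8 to 90.6 in control livers. The Atg7 KO fall is thus relative to the bulk of the genes, in dim probes.

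Ndufb8, a subunit whose protein is widely used as a marker of assembled complex I, had closely spaced arrays within each group. Its levels were 8.95, 9.03, 8.83 and 8.89 in Atg7 KO livers, 8.99, 9.10, 8.97 and 8.79 in Olig1-Cre livers, and 9.31, 9.42, 9.44 and 9.46 in control livers. The 8 arrays of the Cre groups overlapped each other and lay below every control. It fell by 0.48 ± 0.11 in Atg7 KO livers (adjusted p = 0.00712) and by 0.44 ± 0.11 in Olig1-Cre livers (adjusted p = 0.0225). These values are the median of 2 probes, of which the dimmer fell in both comparisons (−0.81 and −0.81), while the brighter had −0.15 in Atg7 KO and −0.08 in Olig1-Cre livers and did not pass. The Olig1-Cre call was lost without Olig1-Cre replicate 1, 3 or 4 or control replicate 2 or 3, with adjusted p up to 0.0626.

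The other Ndufb genes that fell in Atg7 KO livers were Ndufb2 (−0.91, adjusted p = 0.0185), Ndufb4 (−0.80, adjusted p = 0.0128), Ndufb5 (−0.80, adjusted p = 0.0248), Ndufb7 (−0.58, adjusted p = 0.01) and Ndufb6 (−0.41, adjusted p = 0.0332). In Olig1-Cre livers the same genes had −0.41, −0.24, −0.26, −0.38 and −0.28, and none of them passed. The 2 probes of Ndufb6 had −0.57, which passed, and −0.26, which did not. The Atg7 KO call of Ndufb2 was lost without control replicate 3 (adjusted p = 0.0508). Those of Ndufb5 and Ndufb6 were each lost on leaving out Atg7 KO replicate 1 or 2, and likewise control 2, 3 or 4, with adjusted p up to 0.0695 for Ndufb5 and 0.0904 for Ndufb6.

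**Figure D2:**
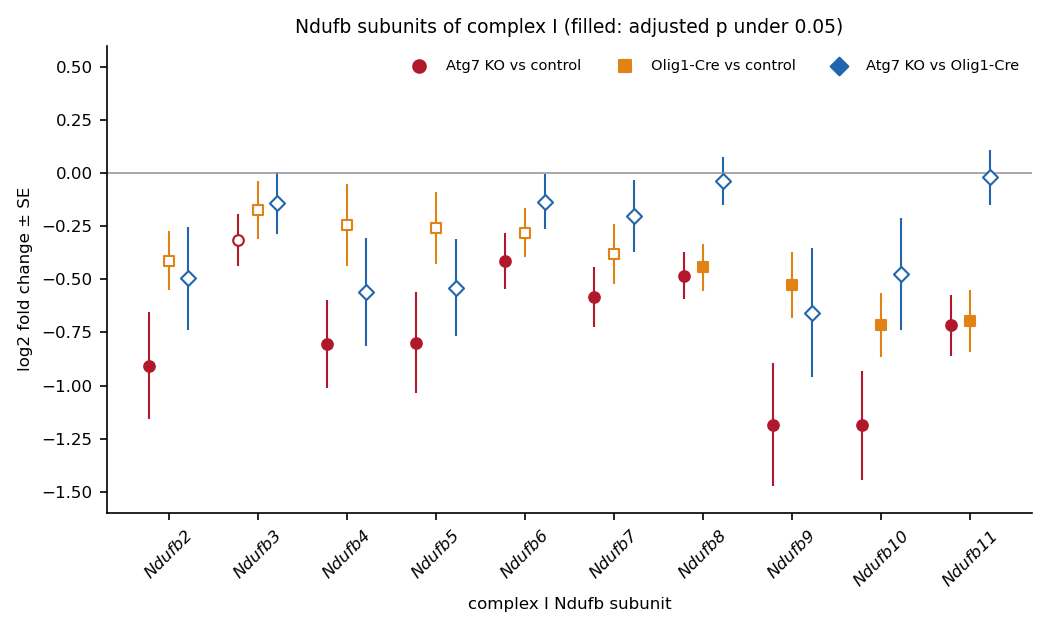
Log2 fold change ± SE (y axis) of the 10 Ndufb genes (x axis) in Atg7 KO against control, Olig1-Cre against control and Atg7 KO against Olig1-Cre livers, with 4 arrays per group; filled symbols passed the limma test. All 10 lay below 0 in each comparison, though their Atg7 KO median was 0.01 with arrays scaled to 1 median. Against the same controls 9 passed in Atg7 KO livers (5 with all 12 arrays and sex in 1 fit) and 4 in Olig1-Cre livers. Over all genes 15.3% fell in Atg7 KO livers and 8.47% in Olig1-Cre livers. Between the Cre groups 0 passed.

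The stretch from 250 bases before to 50 bases after the transcription start is shown for 4 Ndufb genes and the assembly factor Ndufaf1, so that the factors often tied to respiratory chain genes can be set beside the expression values. The sequences are those of RefSeq on GRCm38.p6. Capitals mark matches to motifs of NRF1 (GCGCA and GCGC with any 1 base between), of the ETS core bound by GABPA (CCGGAAG) or of the core element of ERRA (AAGGTCA), searched on both strands, and no matches of different motifs overlapped among the members. Ndufb10 and Ndufb11, the genes with both probes lower, held no match. Ndufb4 held 3 NRF1 matches and 1 ERRA element, Ndufb2 held 1 ERRA element and Ndufaf1 held 1 ETS core.
Ndufb10, chr17:24724374-24724673, minus strand: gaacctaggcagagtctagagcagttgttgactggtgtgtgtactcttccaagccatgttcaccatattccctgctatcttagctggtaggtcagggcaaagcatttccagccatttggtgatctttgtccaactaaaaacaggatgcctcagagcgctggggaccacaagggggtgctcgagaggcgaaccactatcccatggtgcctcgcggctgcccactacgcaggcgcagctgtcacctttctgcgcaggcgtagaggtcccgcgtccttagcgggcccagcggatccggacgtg
Ndufb11, chrX:20617570-20617869, minus strand: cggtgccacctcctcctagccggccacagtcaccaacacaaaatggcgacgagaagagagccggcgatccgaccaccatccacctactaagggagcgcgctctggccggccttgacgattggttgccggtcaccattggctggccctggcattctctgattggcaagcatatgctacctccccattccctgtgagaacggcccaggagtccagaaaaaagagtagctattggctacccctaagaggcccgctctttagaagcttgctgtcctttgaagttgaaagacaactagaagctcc
Ndufb4, chr16:37654319-37654618, minus strand: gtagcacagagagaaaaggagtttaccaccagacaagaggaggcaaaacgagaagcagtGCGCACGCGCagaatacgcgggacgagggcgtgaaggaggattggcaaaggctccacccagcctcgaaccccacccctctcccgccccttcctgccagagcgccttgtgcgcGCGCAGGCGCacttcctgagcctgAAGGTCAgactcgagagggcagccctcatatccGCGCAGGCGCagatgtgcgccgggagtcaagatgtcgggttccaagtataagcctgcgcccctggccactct
Ndufb2, chr6:39592315-39592614, plus strand: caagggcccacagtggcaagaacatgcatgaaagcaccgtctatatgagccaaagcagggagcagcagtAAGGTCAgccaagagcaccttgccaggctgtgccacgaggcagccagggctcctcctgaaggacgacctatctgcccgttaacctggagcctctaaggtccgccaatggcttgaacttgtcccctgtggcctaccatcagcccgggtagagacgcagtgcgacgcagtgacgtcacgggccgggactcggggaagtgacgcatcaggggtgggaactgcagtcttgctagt
Ndufaf1, chr2:119662785-119663084, minus strand: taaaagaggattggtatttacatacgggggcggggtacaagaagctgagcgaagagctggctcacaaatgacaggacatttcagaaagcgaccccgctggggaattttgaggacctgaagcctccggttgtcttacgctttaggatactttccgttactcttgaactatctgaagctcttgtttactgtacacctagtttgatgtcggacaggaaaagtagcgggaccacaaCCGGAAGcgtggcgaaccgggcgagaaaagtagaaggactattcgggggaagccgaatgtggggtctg

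Promoters were found for 73 of the 89 genes, among them 17 of the 20 that fell in Atg7 KO livers. NRF1 matches were in 24.7% of the 73, against 5.19% of all 27025 genes with a promoter in the table, ETS cores in 24.7% against 9.93%, and ERRA elements in 9.59% against 5.38%. Between members the shares were close for NRF1, 23.5% of the 17 genes that fell and 24.5% of the 53 that were not called. ETS cores were in 35.3% (6 of 17) and 22.6% (12 of 53), and ERRA elements in 11.8% (2 of 17) and 9.43% (5 of 53). A match is a run of letters and not a bound site.

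The core subunits of complex I carry its flavin and iron-sulphur centres. Of the 5 tested, Ndufs8 fell, with levels of 10.16, 10.01, 10.35 and 10.46 in Atg7 KO livers, 10.66, 10.75, 10.61 and 10.38 in Olig1-Cre livers, and 10.78, 10.86, 10.76 and 10.84 in control livers. The Atg7 KO arrays did not overlap the controls, and the difference was −0.56 ± 0.13 (adjusted p = 0.00712), against −0.21 ± 0.12 in Olig1-Cre livers (adjusted p = 0.227). Ndufv1 and Ndufv2, the subunits at the NADH end, and Ndufs3 and Ndufs7 did not pass, with differences between −0.16 and −0.06 in Atg7 KO livers.

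Among accessory subunits outside the Ndufb group, Ndufa6, which helps to hold the mitochondrial acyl carrier protein on complex I, and Ndufa5, in the arm that faces the matrix, fell. Ndufa6 had −0.64 ± 0.16 (adjusted p = 0.0112) and Ndufa5 −0.54 ± 0.13 (adjusted p = 0.00835). The dimmer of the 2 probes of Ndufa5 passed (−0.81) and the brighter did not (−0.28). In Olig1-Cre livers Ndufa6 and Ndufa5 had −0.21 and −0.10, and neither passed. The acyl carrier protein gene itself, Ndufab1, had −0.30 ± 0.12 over 4 probes in Atg7 KO livers (adjusted p = 0.0849). Ndufa13 and Ndufa12 were at or above the control mean, with 0.09 and 0.23, and did not pass.

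The assembly factor Ndufaf1 belongs to the intermediate complex that builds the membrane arm. It read 8.74, 8.57, 9.02 and 9.07 in Atg7 KO livers, 9.24, 9.63, 9.22 and 9.16 in Olig1-Cre livers, and 9.52, 9.84, 9.79 and 9.54 in control livers. The Atg7 KO arrays lay below all arrays of both other groups. The difference from controls was −0.82 ± 0.15 in Atg7 KO (adjusted p = 0.00205) and −0.36 ± 0.14 in Olig1-Cre livers (adjusted p = 0.0983), and the difference between the Cre groups was −0.46 ± 0.16 (adjusted p = 0.235).

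Ndufaf3 and Ndufaf4, partners in the early assembly of the matrix arm, passed narrowly in Atg7 KO livers. Ndufaf3 had −0.46 ± 0.15 (adjusted p = 0.0351) and Ndufaf4 −0.47 ± 0.17 (adjusted p = 0.0486), with −0.47 and −0.45 in Olig1-Cre livers, where neither passed. The 2 probes of Ndufaf4 disagreed, at −1.06 and 0.11. Both calls were lost on leaving out Atg7 KO replicate 1, 2 or 4, and likewise control 2 or 4, that of Ndufaf3 also without control 3 and that of Ndufaf4 also without control 1, with adjusted p up to 0.0902 and 0.122. The other 4 assembly factors tested, Ndufaf2, Ndufaf5, Ndufaf7 and Ndufaf8, had −0.41, −0.17, −0.35 and −0.45 and did not pass.

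Complex II was measured through 3 of its 4 subunits, since the Sdha probe was detected on no array. Sdhb, the iron-sulphur subunit, read 9.89, 9.56, 9.85 and 10.21 in Atg7 KO livers, 10.27, 10.24, 10.41 and 10.16 in Olig1-Cre livers, and 10.45, 10.54, 10.39 and 10.54 in control livers. It fell by 0.60 ± 0.15 in Atg7 KO livers (adjusted p = 0.00983), with no overlap, and had −0.21 ± 0.11 in Olig1-Cre livers (adjusted p = 0.192). Of its 3 probes, 2 fell when tested singly.

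The membrane anchors Sdhc and Sdhd did not pass in Atg7 KO livers. Sdhd had −0.79 ± 0.32 (adjusted p = 0.0776) with levels of 7.47, 7.52, 8.91 and 8.71 in Atg7 KO livers, against 8.69, 8.97, 8.96 and 9.14 in control livers. Its first pair of Atg7 KO arrays, on chip 1, lay far below all controls, while the pair on chip 2 overlapped them. It passed without Atg7 KO replicate 3 or 4. Sdhc had −0.43 ± 0.17 (adjusted p = 0.0712) and passed without Atg7 KO replicate 3.

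Complex III held 2 genes that fell of 8 tested (25%, against 15.3% of all genes). Uqcrq, a small subunit beside the cytochrome b core, read 6.63, 6.61, 6.61 and 6.31 in Atg7 KO livers, 6.58, 6.88, 6.74 and 6.70 in Olig1-Cre livers, and 7.01, 7.45, 7.32 and 7.37 in control livers. All arrays of the Cre groups were below all controls, with differences of −0.75 ± 0.14 in Atg7 KO (adjusted p = 0.00227) and −0.56 ± 0.13 in Olig1-Cre livers (adjusted p = 0.0162). The Olig1-Cre call was lost without Olig1-Cre replicate 1 (adjusted p = 0.0538).

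Cyc1, the haem-carrying cytochrome c1, fell by 0.39 ± 0.12 in Atg7 KO livers (adjusted p = 0.0311) and had −0.20 ± 0.13 in Olig1-Cre livers (adjusted p = 0.291). The call was lost on leaving out Atg7 KO replicate 1, 2 or 4, and likewise control 2 or 4, with adjusted p up to 0.0827. The core proteins Uqcrc1 and Uqcrc2 had −0.13 and −0.11, Uqcrh and Uqcr11 −0.07 and −0.01, and Uqcr10 0.11, none of which passed. Uqcrfs1, the Rieske iron-sulphur protein, was near background, detected on 6 of 12 arrays. Cytochrome c (Cycs), the soluble carrier to complex IV, had −0.34 ± 0.24 (adjusted p = 0.3), with Atg7 KO levels of 5.76, 5.42, 6.30 and 6.66 on both sides of the control range of 6.21 to 6.51.

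Of the 9 common subunits of complex IV, Cox7a2 fell. It is the isoform of subunit 7a that the liver uses. It read 7.83, 7.43, 7.47 and 8.37 in Atg7 KO livers, 8.30, 8.25, 8.22 and 7.80 in Olig1-Cre livers, and 8.32, 8.53, 8.47 and 8.64 in control livers, with 1 Atg7 KO array inside the control range. The difference was −0.72 ± 0.20 in Atg7 KO (adjusted p = 0.0194) and −0.35 ± 0.14 in Olig1-Cre livers (adjusted p = 0.106). The Atg7 KO call was lost without Atg7 KO replicate 2 (adjusted p = 0.0528).

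Cox7b, another small subunit, had −0.92 ± 0.37 in Atg7 KO livers but did not pass (adjusted p = 0.0768). Its Atg7 KO levels were 5.64, 5.30, 6.69 and 6.98, against 6.47, 7.34, 6.97 and 7.51 in controls, so the arrays of chip 1 alone lay below the controls. The bright subunits Cox4i1, Cox5a, Cox6a1, Cox6b1, Cox6c and Ndufa4 had differences between −0.15 and 0.10, and Cox5b had −0.32 (adjusted p = 0.052).

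The tissue-restricted isoforms of complex IV were mostly not detected. Cox6a2, the heart and muscle isoform of subunit 6a, was near background, detected on 3 Atg7 KO, 3 Olig1-Cre and 0 control arrays. It read 4.77, 4.61, 4.52 and 5.12 in Atg7 KO livers, 5.37, 4.32, 5.01 and 5.14 in Olig1-Cre livers, and 4.31, 4.35, 4.24 and 4.35 in control livers. It passed the detection filter through the Cre groups alone, so its calls in both comparisons follow in part from that filter and are not read as a rise, and both were lost with no filter on detection. The skeletal muscle genes Ckm, Acta1, Myh4 and Tnnt3 were not tested because too few arrays detected them. Cox7a1, the muscle form of subunit 7a, was at −0.06 ± 0.18 in Atg7 KO livers (adjusted p = 0.834). The testis form Cox6b2 was detected on 3 Atg7 KO, 0 Olig1-Cre and 1 control arrays and did not pass in any comparison.

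ATP synthase held 1 gene that fell of 16 (6.25%, against 15.3% of all genes). The catalytic F1 part had 0 of 6, and at an unadjusted p under 0.05 it had 2. Atp5b, the catalytic beta subunit and the brightest of the F1 probes, read 13.58, 13.66, 13.84 and 13.55 in Atg7 KO livers, 13.74, 13.66, 13.75 and 13.58 in Olig1-Cre livers, and 13.59, 13.63, 13.54 and 13.62 in control livers, with full overlap and a difference of 0.06 ± 0.12 in Atg7 KO (adjusted p = 0.717). Atp5e, the small epsilon subunit, had −0.81 ± 0.31 (adjusted p = 0.0695), with Atg7 KO levels of 6.71, 6.24, 7.70 and 7.72 against 7.63, 7.84, 7.91 and 8.22 in controls.

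In the membrane part and stalk, Atp5md, a small subunit tied to the dimer form of the enzyme, fell by 0.82 ± 0.28 in Atg7 KO livers (adjusted p = 0.044). It read 5.60, 4.91, 6.10 and 6.38 in Atg7 KO livers, 6.11, 6.09, 6.67 and 5.99 in Olig1-Cre livers, and 6.56, 6.29, 6.58 and 6.85 in control livers. The call was lost without Atg7 KO replicate 1 or 2 or any 1 control, with adjusted p up to 0.105. The proton ring genes Atp5g2 and Atp5g3 had −0.21 and −0.09, and the other 7 genes of this part had differences between −0.46 and −0.04, none of which passed.

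**Figure D3:**
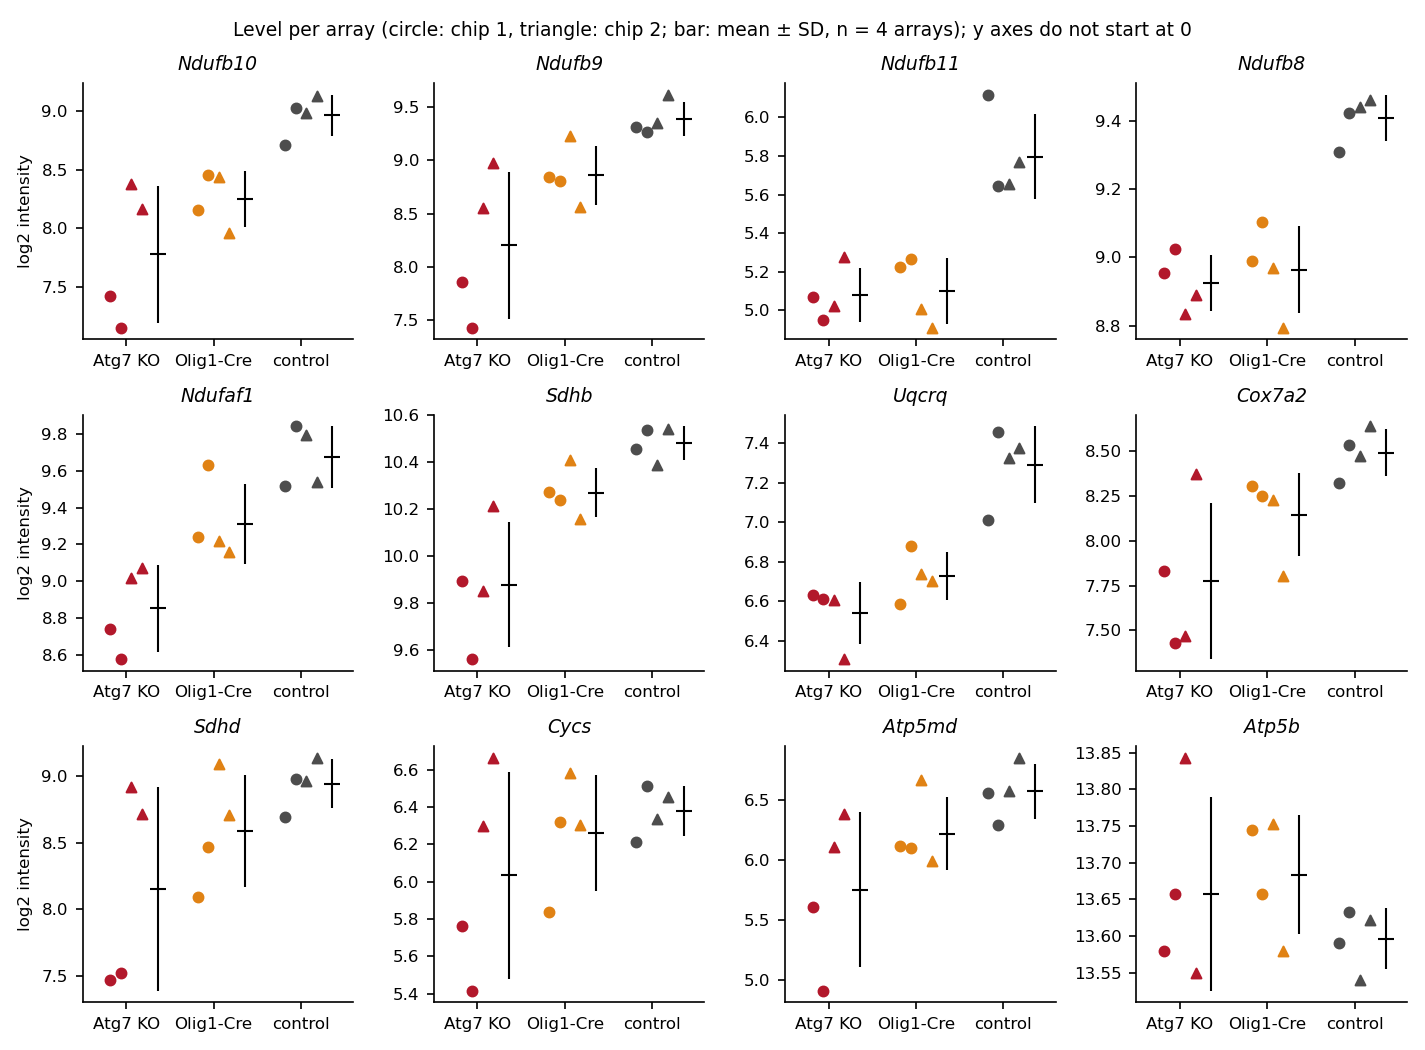
Log2 intensity (y axis, not starting at 0) of 12 members on each array of Atg7 KO, Olig1-Cre and control livers; circles are arrays of chip 1, triangles those of chip 2, and the bar is the mean ± SD of 4 arrays. Ndufb10, Ndufb9, Ndufb11, Ndufb8 and Uqcrq were below the controls on all 8 Cre arrays, Sdhd, Cycs and Atp5md were lowest on the chip 1 arrays of Atg7 KO livers, and Atp5b overlapped in all groups.

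The fall in Atg7 KO livers was uneven between the chips for many members. Both Atg7 KO arrays of chip 1 lay below both of chip 2 in 27 of 82 members (32.9%), against 21% of all genes, and in 11 of the 20 genes that fell. In control livers this held for 17 of 82 members (20.7%, against 16.4% of all genes). Both Atg7 KO arrays of chip 1 lay above both of chip 2 in 19 of 82 members (23.2%, against 23.6% of all genes). The mean of the chip 1 pair was lower than that of the chip 2 pair by over 0.5 on the log2 scale in 15 members in Atg7 KO livers, 3 in Olig1-Cre livers and 1 in control livers. Over all 10711 genes the same held for 798, 362 and 426.

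Within chips, the Atg7 KO difference of Ndufb9 was −1.65 on chip 1 and −0.72 on chip 2, and that of Ndufb10 was −1.59 and −0.79. Members that did not pass also differed between chips, with −1.34 and −0.24 in Sdhd, −1.44 and −0.40 in Cox7b, −1.26 and −0.35 in Atp5e, and −0.77 and 0.09 in Cycs. It ran the other way in Uqcrq (−0.61 and −0.89), Ndufb7 (−0.33 and −0.83) and Ndufb8 (−0.38 and −0.59). Tested within a chip, with 2 arrays against 2, 12 members fell on chip 1 (14.6%, against 6.91% of all genes), 8 of them among the 20, and 4 fell on chip 2 (Ndufb10, Uqcrq, Ndufa6 and Ndufb7; 4.88%, against 6.25%). With the chip as a block, 24 members fell (29.3%, against 15.9%), 19 of them among the 20. All 4 Atg7 KO mice were male and of the Alb line, whichever chip held them. The controls of chip 2 were all female, while control replicate 1, on chip 1, was male. The chips thus differ in sex make-up, and on chip 2 sex and genotype cannot be told apart.

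The members that fell were also mostly the dimmer ones. When the 82 were split at their median intensity, 10.21 on the log2 scale, 17 of the 41 dimmer genes fell in Atg7 KO livers (41.5%) and 3 of the 41 brighter ones, Ndufs8, Ndufa6 and Cyc1 (7.32%). Over all genes the order was the other way round, with 14.8% below and 23.5% above that intensity. The median difference was −0.45 in the dimmer and −0.10 in the brighter members. Of the 20 genes that fell, 7 had several kept probes, and in 2 of these, Ndufb10 and Ndufb11, every kept probe fell. With the brightest probe taken for each gene, 16 members fell (19.5%, against 15.2% of all genes), 7 of them Ndufb genes. Intensity depends on the probe, so it does not rank transcripts by abundance, and the part of brightness in these counts was not tested.

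**Figure D4:**
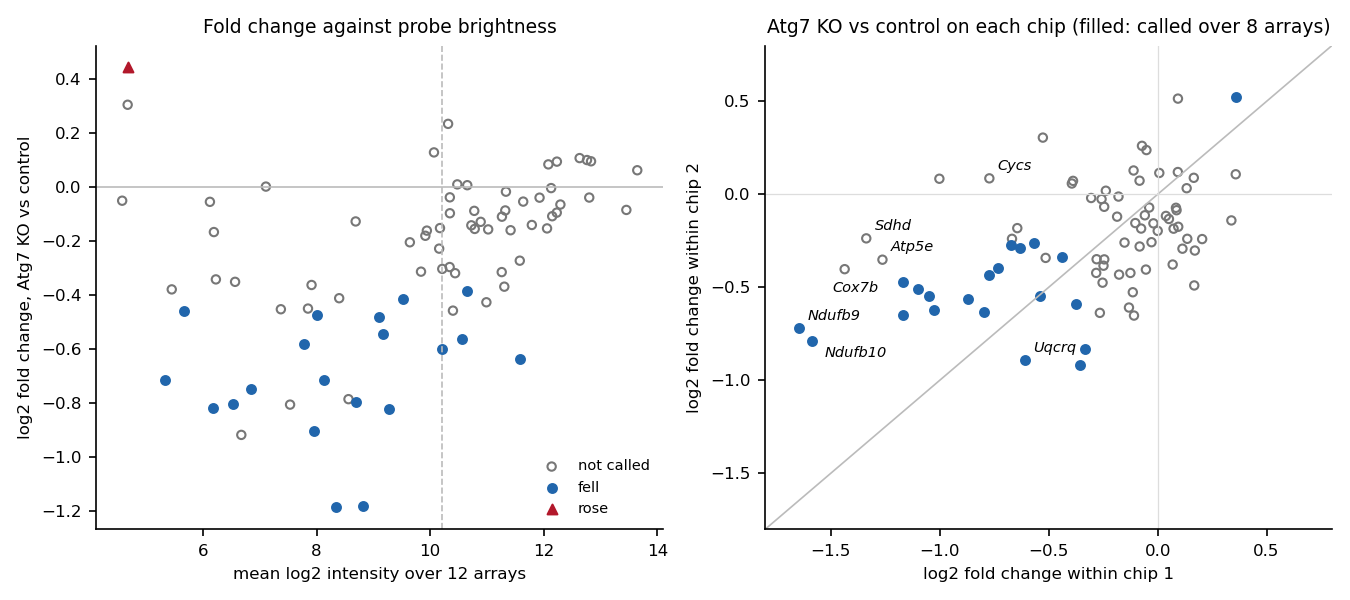
Left, log2 fold change in Atg7 KO against control livers (y axis) against the mean log2 intensity over 12 arrays (x axis) for 82 genes, with the median intensity dashed; right, the same difference within chip 1 (x axis) and within chip 2 (y axis), with the diagonal. On the left 17 of the 20 genes that fell lie at or left of that line, and on the right Sdhd, Cox7b, Atp5e and Cycs lie far above the diagonal, lower on chip 1 than on chip 2.

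Fewer members passed in Olig1-Cre livers against the same 4 controls, and most of those that did were again Ndufb genes. Of 82 members, 5 fell (6.1%, against a background of 8.47% of all genes) and 1 was called higher (1.22%, against 12.8%). The genes that fell were Ndufb8, Ndufb9, Ndufb10, Ndufb11 and Uqcrq, and the one called higher was Cox6a2, all described above. The median over the members was −0.07, with 49 of 82 below 0. The count of genes that fell was 2 without Olig1-Cre replicate 1 (2.44%, against 3.39% of all genes) and 3 without Olig1-Cre replicate 4 (3.66%, against 4.78%). It was 3 without control replicate 2 or 3 (3.66%, against 5.08% and 3.75%). Since both comparisons share the control arrays, the genes they have in common are not independent evidence.

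The direct comparison of Atg7 KO with Olig1-Cre livers called 0 of 82 members, against a background of 0.159% of all genes (0.0747% rose and 0.084% fell), with 8 members at an unadjusted p under 0.05. The difference lay below 0 for 79 of 82 members, against 50.7% of all genes, and its median was −0.16. The 3 members at or above 0 were Ndufaf3 (0.01), Atp5c1 (0.04) and Cox6b2 (0.48). Ndufb9, Cox7b and Ndufb4 had the largest shifts, at −0.66 ± 0.30, −0.64 ± 0.36 and −0.56 ± 0.26 (adjusted p = 0.364, 0.448 and 0.356). Ndufa5 had the smallest adjusted p of those named here (0.142), at −0.44 ± 0.11. These values compare 4 male livers with 1 male and 3 female livers. With sex as a covariate the difference lay below 0 for 58 of 82 members (median −0.13), and with all 12 arrays and sex in 1 fit for 66 (median −0.13). It did so for 72 within chip 1 (median −0.18) and for 62 within chip 2 (median −0.11).

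**Figure D5:**
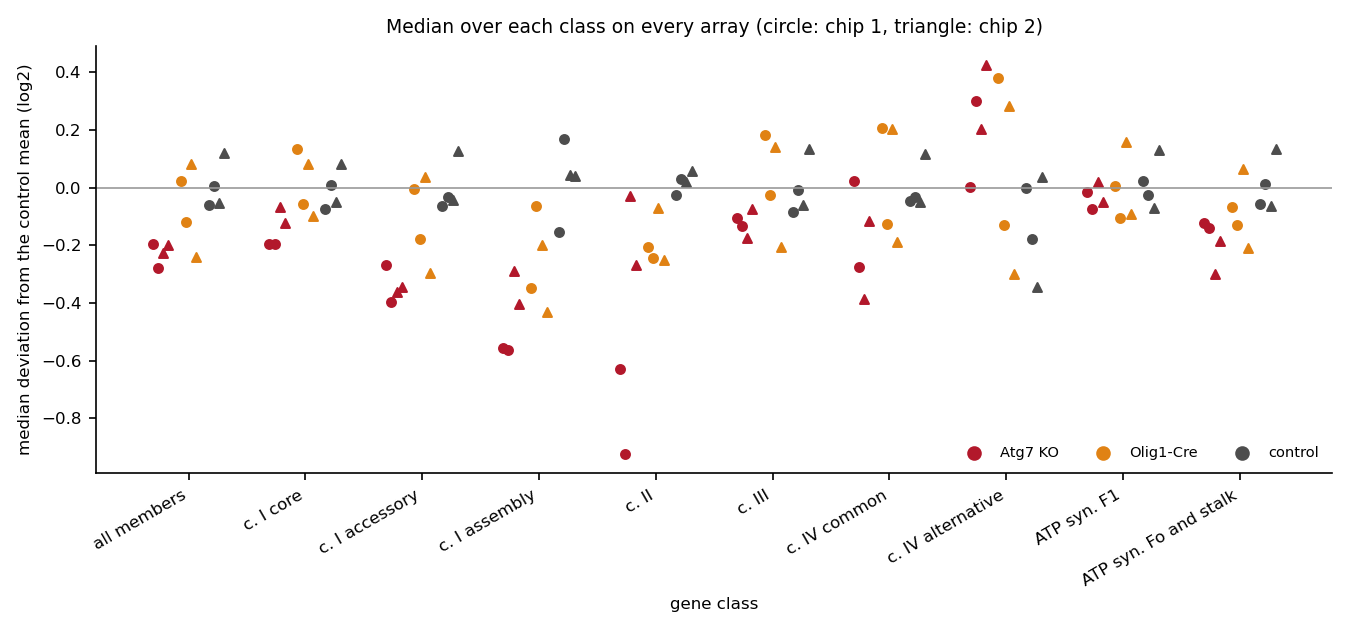
Median deviation from the control mean (y axis, log2) over the genes of each class (x axis) on each array; circles are chip 1, triangles chip 2, and groups run from Atg7 KO to Olig1-Cre to control within a class. Over all 82 genes the 4 Atg7 KO arrays lay between −0.28 and −0.20, the Olig1-Cre arrays between −0.24 and 0.084, and the control arrays between −0.059 and 0.12.

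Array by array, the median deviation of the 82 members from the control mean was −0.20, −0.28, −0.22 and −0.20 in Atg7 KO livers. It was 0.024, −0.12, 0.084 and −0.24 in Olig1-Cre livers and −0.059, 0.0063, −0.053 and 0.12 in control livers. The Atg7 KO arrays were alike and below every control, whereas Olig1-Cre replicate 4 lay among the Atg7 KO arrays and replicates 1 and 3 among the controls.

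The male against female contrast in Olig1-Cre and control livers rests on 1 male and 3 females in each group. Both males, control replicate 1 and Olig1-Cre replicate 2, were on chip 1, so sex and chip are partly mixed. With so few males, it cannot show that sex leaves the members unchanged. In it 0 of 82 members passed (background 0.429% of all genes, 0.215% in each direction), 4 had an unadjusted p under 0.05, and the median was −0.068. This male against female difference lay below 0 for 59 of 82 members (72%, against 52.4% of all genes). With sex as a covariate in the fit of Atg7 KO and control livers, where 1 control was male, 1 member fell (Ndufb11, −1.04, adjusted p = 0.00592), 1.22% against 7.98% of all genes. With all 12 arrays and sex in 1 fit, 11 members fell, all among the 20, and their share of 13.4% was below the 15.7% of all genes. Among them were Ndufb10 (−1.16), Ndufb9 (−1.12), Ndufaf1 (−0.91), Uqcrq (−0.69), Ndufs8 (−0.62) and Sdhb (−0.57). Against the 2 controls of the Alb line alone, Ndufaf1, Ndufb11 and Uqcrq fell, 3.66% of the members against 10.1% of all genes.

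Of the 6 hepatocyte markers tested, 4 fell in Atg7 KO livers (66.7%, against 15.3% of all genes), with a mean log2 level of 12.54 to 12.83 there, 12.56 to 13.11 in Olig1-Cre livers and 13.07 to 13.33 in control livers. Of 7 macrophage markers 6 rose (85.7%, against 19.5% of all genes), with means of 8.06 to 8.29 in Atg7 KO livers, 7.62 to 8.58 in Olig1-Cre livers and 6.88 to 7.38 in control livers. Of 8 stellate cell markers 5 rose (62.5%), as did 2 of 4 for cholangiocytes (50%). Of 5 endothelial markers 1 rose and 1 fell, and 0 of 4 lymphocyte and 0 of 2 erythroid markers were called. In Olig1-Cre livers 1 of 6 hepatocyte markers fell (16.7%, against 8.47% of all genes). There 4 of 7 macrophage, 1 of 8 stellate, 1 of 4 cholangiocyte and 1 of 4 lymphocyte markers rose (12.8% of all genes rose). Of the 5 endothelial markers 1 rose and 1 fell there, and 1 of 2 erythroid markers fell. The part of these shifts in the members' values was not tested.

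Genes outside the list that serve the same machinery were read from the same fit, from lists chosen by function. Of 35 other assembly factors tested, 7 fell (20%, against 15.3% of all genes) and 4 rose (11.4%, against 19.5%) in Atg7 KO livers. Ecsit, a partner of Ndufaf1 in complex I assembly, averaged 8.05 ± 0.39 in Atg7 KO livers, 8.66 ± 0.24 in Olig1-Cre livers and 9.27 ± 0.13 in control livers (SD, n = 4 each), and fell in both comparisons, by 1.22 (adjusted p = 0.000718) and 0.60 (adjusted p = 0.0175). Timmdc1, also a complex I factor, fell by 0.82 and Surf1, a complex IV factor, by 0.65 in Atg7 KO livers. The 4 that rose were Atpif1, the inhibitor of ATP synthase (0.84), Cox19 (0.80) and Cox17 (0.68), which act in copper delivery to complex IV, and Coa3 (0.36).

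Of the 7 subunits encoded by mitochondrial DNA that were tested, 0 passed in Atg7 KO livers, where 2 had an unadjusted p under 0.05, and 1 fell in Olig1-Cre livers. That was ND5, with a mean of 5.78 ± 1.44 in Atg7 KO livers, 5.79 ± 0.56 in Olig1-Cre livers and 7.34 ± 0.41 in control livers (SD, n = 4 each). Its difference was −1.56 in Atg7 KO (adjusted p = 0.0598) and −1.54 in Olig1-Cre livers (adjusted p = 0.00629). The bright probes of ND1, ND4 and CYTB had −0.15, −0.08 and −0.12 in Atg7 KO livers and did not pass.

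Regulators of mitochondrial gene expression and biogenesis fell more often than they rose, with 10 of 19 lower (52.6%, against 15.3% of all genes) and 1 higher (5.26%, against 19.5%) in Atg7 KO livers, and 6 lower in Olig1-Cre livers (31.6%, against 8.47%). Polg2, the accessory subunit of the mitochondrial DNA polymerase, fell by 1.22 (adjusted p = 0.000171), the mitochondrial transcription factor Tfb2m by 0.92 (adjusted p = 0.000451), and Tfb1m by 0.84 (adjusted p = 0.0055). Ppargc1b, a coactivator of respiratory genes, fell by 0.93 (adjusted p = 0.0115). The lowest log2 fold change in this list was −1.65, in a gene not named here. All Atg7 KO livers were male, and the lists were not read with sex in the fit. Nrf1 and Gabpa, whose motifs were searched above, fell by 0.37 and 0.41 (adjusted p = 0.0268 and 0.0231), and the related coactivator Pprc1 rose by 0.62 (adjusted p = 0.0272). The other mitochondrial lists were mostly near the background share that fell in Atg7 KO livers, 15.3%. Of 16 genes of the tricarboxylic acid cycle 2 fell (12.5%), Idh3a (−0.64) and Pcx (−0.42). Of 72 genes of the mitochondrial ribosome 10 fell (13.9%) and 4 rose (5.56%), and of 14 chaperones and proteases 2 fell (14.3%). Of 24 genes for protein import 7 fell (29.2%) and 1 rose (4.17%). Of 5 nucleotide carriers and uncouplers 0 were called, with 1 at an unadjusted p under 0.05. Of 6 mitophagy adaptors 2 rose and 1 fell. Sqstm1, a cargo receptor that autophagy itself degrades, averaged 11.998 in Atg7 KO livers, 11.772 in Olig1-Cre livers and 10.499 in control livers on the log2 scale, and rose in both comparisons (adjusted p = 2.29e-05 and 0.00314).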

How the data were processed

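RNA of 12 whole mouse livers was measured on Illumina MouseWG-6 v2.0 bead arrays. The authors deposited, for each array, the linear signal intensity and the detection p-value of every probe as exported by GenomeStudio, and log2 values normalised with limma 3.22.1, per the submitters' processing notes; the paper's methods also name a cubic spline and collapse of probes to the median of a gene. Here the deposited intensities and detection p-values were normalised with neqc (normexp background correction, offset 16, quantiles, log2), with a largest departure of 0.0270 from the log2 values the authors deposited. Probes detected at p under 0.05 on at least 4 arrays were kept (19528 of 45281). A gene was the median of its kept probes, with gene symbols from GEO's platform annotation, which left 10378 probes unnamed and gave 18 several symbols. Groups were compared with limma (lmFit and eBayes, two-sided) on the 8 arrays of each pair, with Benjamini-Hochberg adjustment over 10711 genes and a threshold of 0.05. R 4.3.3, limma 3.58.1 and data.table (version 1.17.8) were used, and the fit was tested on simulated data. No read depth applies to arrays, and precision is limited by 4 arrays per group; the p-values measure the spread between these mice only. The rule for the members uses gene symbols alone, but the family and the gene lists were chosen with earlier results of these data known. Members named with values were, in each class, the 3 largest rises and 3 largest falls among those called, and any other member singled out was chosen after its values were seen. Alternatives were the deposited values, other normalisations, filters and probe summaries, chip or sex in the fit, other sets of arrays and each array left out.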

Additional observations from a re-analysis of the deposited data

Results flagged for a closer look

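In 57 groups of 4 arrays (19 members in 3 groups), 2 held an array far from the other 3 relative to the group's range, where chance gives about 1 in 20. Uqcrq on Atg7 KO replicate 4 was at 6.306 on the log2 scale, below the other Atg7 KO arrays at 6.606 to 6.631. Cox7a2 on Olig1-Cre replicate 4 was at 7.801, below the other Olig1-Cre arrays at 8.224 to 8.302.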

How the results depend on the processing

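No paired analysis was possible because the labels give no replicate numbers, and those used here follow the order of the records. For Atg7 KO against control livers, where 20 members fell (24.4%, against 15.3% of all genes) and 1, Cox6a2, was called higher, the count that fell was 0 with arrays scaled to 1 median (3 rose), 1 with sex as a covariate (1.22%, against 7.98%), 11 with all 12 arrays and sex in 1 fit (13.4%, against 15.7%), 12 within chip 1 (14.6%, against 6.91%), 4 within chip 2 (4.88%, against 6.25%) and 3 against controls of the Alb line alone (3.66%, against 10.1%). The count called higher was 0 under the cubic spline, quantiles without background correction, no filter, detection on all arrays of a group, sex as a covariate, all 12 arrays in 1 fit, either chip and the Alb line controls. Leaving out 1 array gave 14 to 24 that fell and 0 to 1 that rose.

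For Olig1-Cre against control livers, 5 fell (6.1%, against 8.47% of all genes) and Cox6a2 was called higher. The count that fell was 8 under the cubic spline (9.76%, against 7.93%) and 7 with quantiles without background correction (8.54%, against 8.01%). It was 0 with arrays scaled to 1 median (0.355% of all genes), 3 with no filter (3.37%, against 2.55%) and 3 with the brightest probe (3.66%, against 8.17%). It was 0 within chip 1, where 0 of all genes fell, and 1 within chip 2 (1.22%, against 4.34%). Against controls of the Olig1 line alone it was 2 (2.44%, against 2.23%). The count called higher was 0 under the cubic spline, quantiles without background correction, scaling to 1 median, no filter, detection on all arrays of a group, the chip as a block, chip 1 and the Olig1 line controls. Leaving out 1 array gave 2 to 6 that fell and 0 to 1 that rose. Atg7 KO against Olig1-Cre livers had 0 members called under every alternative run.

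Scaling to 1 median left 10 of 82 members below 0 in Atg7 KO livers, against 69 under quantiles. Among the 19 members named by rule, it turned, where either fit made a call, the Atg7 KO difference of Ndufaf4 (0.34), Ndufaf3 (0.26), Cyc1 (0.17), Uqcrq (0.12), Cox7a2 (0.12), Atp5md (0.0097) and Cox7a1 (0.75, adjusted p = 0.0344), and the Olig1-Cre difference of Ndufb9 (0.0059) and Uqcrq (0.042). It also moved the median of all genes to 0.59 and 0.40. The brightest probe of Ndufaf4 gave 0.11. Fits within a chip had 2 arrays a group, and the controls of chip 2 were all female. The sex covariate rested on 1 male control, and why other calls changed was not tested. Of 19 members named by rule, 104 of the values for Atg7 KO against control livers lost the call with the direction kept, 6 gained it, 8 turned sign with a call in either fit and 317 did none of these. Signal near background limits Cox6a2, Cox6b2 and Uqcrfs1, and Ndufb11 was dim.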
